A study of Mus musculus with 672 samples.

Results

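All-lymphoid progenitors (ALPs) with Ebf1 transcript are the bone marrow ALP cells in which at least 10 reads of Ebf1 were counted. They numbered 115 of the 235 ALPs that passed the filters on cell quality, and of 561 such cells in the whole study. The other 120 ALPs, with fewer than 10 Ebf1 reads, served as the comparison within the same mice and are called Ebf1-low here. The Ebf1-positive cells came from all 4 mice, with 50 and 31 cells in the Mbd3-null mice 18217 and 18219, and 24 and 10 cells in the control mice 18218 and 18220. The cells were chosen by their Ebf1 read count, so Ebf1 itself is described below and was not tested.

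The null mice were Mbd3 del/del and the control mice Mbd3 flox/flox, all 7 weeks old and on a C57BL6/129Ola background. The labels name no Cre driver and give no sex. ALPs were sorted from femurs and tibiae as lineage-negative Sca-1+ c-Kit+ Flt3-high cells with surface IL-7 receptor and without Ly6D and B220. Lymphoid-primed multipotent progenitors (LMPPs) lacked the IL-7 receptor, and B cell-biased lymphoid progenitors (BLPs) carried both the IL-7 receptor and Ly6D. Single cells were sequenced by a full-length protocol without molecular identifiers, so every count is a read.

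Ebf1 encodes a DNA-binding factor that B lymphopoiesis cannot do without. In mouse progenitors it acts with E2A, Foxo1 and Pax5 to open B-lineage genes, among them Cd79a, which encodes the signalling chain Ig-alpha of the B cell receptor, and the surrogate light chain genes Igll1 and Vpreb1. It also opposes T and innate lymphoid regulators such as Gata3. Rag1 and Rag2 encode the recombinase that cuts antigen receptor genes, and Dntt encodes the polymerase that adds bases at the cut ends. The product of Mbd3 belongs to the NuRD chromatin complex, which has both nucleosome-remodelling and histone deacetylase activity.

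The letters that mouse Ebf1 is known to read were looked for in the windows from 250 bases before to 50 bases after the start of 14 B- or T-lineage genes, with RefSeq sequence of GRCm38.p6. The first motif was TCCC, then 2 bases of any kind, then GGGA, which is its own reverse complement. It was found in 0.904% of all 32851 windows searched. The second was CAAGGGAAT on either strand, the letters of the site known from the Cd79a promoter, found in 0.244% of the windows. Of the 14 genes, 1 held the first motif and 1 held the second. The second lies in Cd79a, whose promoter it was taken from, so that match is no finding. Blk, Cd79b and Cd7 were also listed but had no window to search. The stretches around both motifs are shown because Cd79a and Foxo1 are compared below, with the motif in capitals.
Cd79a: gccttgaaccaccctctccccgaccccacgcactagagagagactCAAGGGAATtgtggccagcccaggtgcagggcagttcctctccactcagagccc
Foxo1: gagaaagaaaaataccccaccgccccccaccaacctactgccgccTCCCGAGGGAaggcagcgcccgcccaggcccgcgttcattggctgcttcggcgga
The Cd79a stretch lies at chr7:24897278-24897376 on the plus strand, and its motif begins 174 bases before the annotated start. The Foxo1 stretch lies at chr3:52268200-52268299 on the plus strand, and its motif begins 92 bases before the start. The windows of Ebf1, Rag1, Rag2, Pax5, Vpreb1, Vpreb2, Vpreb3, Igll1, Pou2af1, Gata3, Tcf7 and Nfil3 held neither run of letters. A match describes the letters only, and binding was not measured here.

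Ebf1-positive cells made up 63.3% of ALPs in null mouse 18217 (50 of 79 cells, exact 95% interval 51.7 to 73.9%) and 73.8% in null mouse 18219 (31 of 42, 58.0 to 86.1%). They made up 32.4% of ALPs in control mouse 18218 (24 of 74, 22.0 to 44.3%) and 25.0% in control mouse 18220 (10 of 40, 12.7 to 41.2%). Both null mice lay above both control mice, with means of 68.6% ± 7.44 in null and 28.7% ± 5.25 in control mice (SD, n = 2 each). The two-sided exact permutation test gave p = 0.333, the smallest value that 2 mice against 2 allow. After every cell was thinned to 50000 gene counts, ALPs with at least 1 Ebf1 read made up 67.3% ± 9.23 in null and 25.0% ± 10.6 in control mice. None of the 101 ALP wells that failed the quality filters held 10 Ebf1 reads, and 42 and 44 of those wells belonged to mice 18219 and 18220.

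Within the Ebf1-positive cells the transcript itself covered a wide range. The lowest, median and highest Ebf1 counts were 16, 230 and 1578 reads in null mouse 18217, and 15, 259 and 1877 in null mouse 18219. They were 10, 51.5 and 744 reads in control mouse 18218, and 10, 86 and 629 in control mouse 18220. The median level per cell was 196 and 162 CPM (counts scaled by the total gene counts of the cell or, for the summed libraries below, by that total after TMM normalization) in the null mice, against 58.2 and 46.9 CPM in the control mice. Null medians were thus above control medians on both scales, and these values have no test because the count chose the cells. A single cell supplied 45.7% of the Ebf1 reads of mouse 18220, and 9.79 to 25.0% in the other 3 mice.

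The threshold of 10 reads cut through few cells. Just outside it lay 5 cells with 9 reads and 2 with 8, and just inside it 2 with 10 and 2 with 11. Only 10 Ebf1-positive cells held 10 to 19 reads, while 53 held 200 or more. Among the Ebf1-low cells 37 had no Ebf1 read, 64 had 1 to 4 and 19 had 5 to 9. The cut was on raw reads, so the classes overlapped in Ebf1 CPM. In null mouse 18217 an Ebf1-low cell had 20.4 CPM and an Ebf1-positive cell 11.2 CPM. In control mouse 18220 such cells had 8.86 and 4.30 CPM. In BLPs the median Ebf1 level was 93.0 and 149 CPM in null and 152 and 227 CPM in control mice. LMPPs had medians of 0.630 to 0.915 CPM, and 1 of 186 LMPPs reached 10 reads.

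**Figure D1:**
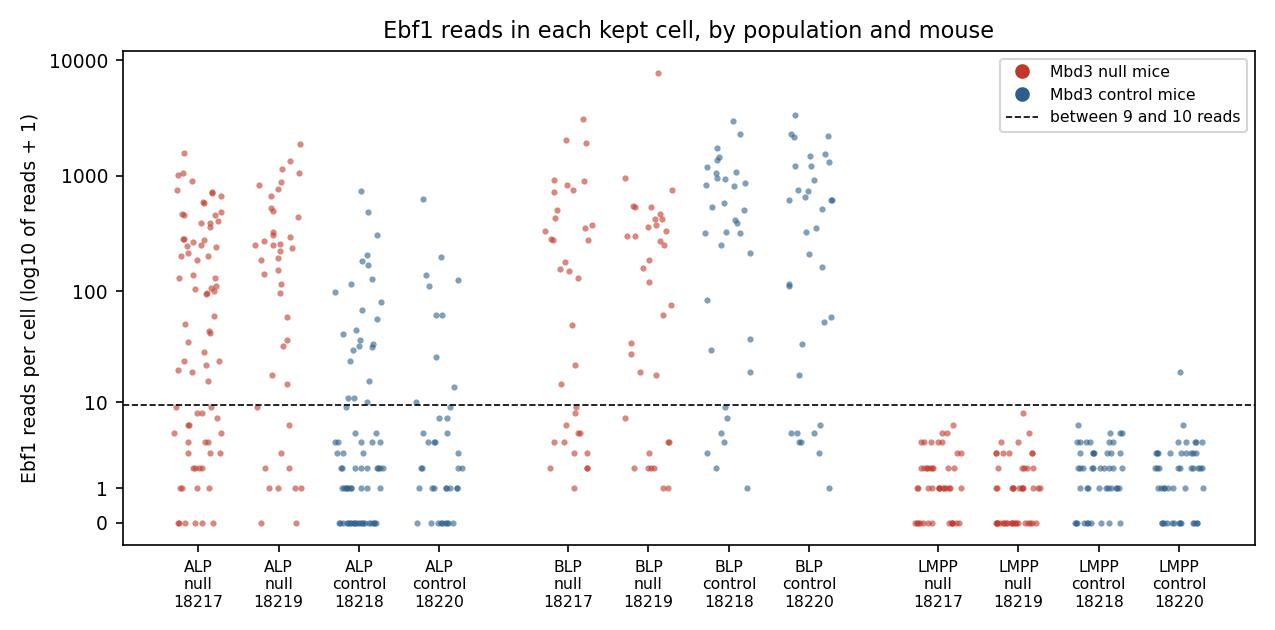
Ebf1 reads in each kept cell (y axis, log10 of reads + 1) by population and mouse (x axis), with null mice in red and left of control mice in blue; each point is 1 cell and the dashed line separates cells with 9 reads or fewer from cells with 10 or more. ALPs spread across the line in all 4 mice, with 63.3 and 73.8% above it in null and 32.4 and 25.0% in control mice, and LMPPs lie below it except for 1 cell.

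Summed per mouse, the Ebf1-positive ALP libraries held 19015785 to 61654816 gene counts and the Ebf1-low libraries 15128394 to 88000121. Median nuclear counts per cell were 1070833 to 1919974.5 in Ebf1-positive and 849151 to 1678840 in Ebf1-low cells. Median mitochondrial shares were 5.18 to 6.91% in Ebf1-positive and 6.17 to 6.59% in Ebf1-low cells, and median spike-in shares 7.60 to 13.0% and 6.56 to 9.74%. Mbd3 stood at 3.41 and 0.405 CPM in Ebf1-positive cells of null mice, against 91.4 and 155 CPM in those of control mice. Of the 214 Mbd3 reads of mouse 18217, 88.3% came from 1 cell. Over the 8 classes of cell and genotype, the common biological coefficient of variation was 92.1%. This is 1 value for all 19693 genes in the fit, so the summed levels are imprecise.

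The first question was how Ebf1-positive ALPs differ from Ebf1-low ALPs of the same mice. The B-lineage genes Pax5, Rag1 and Cd79a had higher CPM in the Ebf1-positive class in at least 3 of 4 mice. Tcf7, Nfil3 and Cd7, genes of T and innate lymphoid cells, had lower CPM in all 4. In mouse 18219, however, Tcf7 was nearly without reads in both classes. Single cells also held large parts of the Ebf1-low reads of Tcf7 and Cd7, as given below. The lists of T and innate genes did not follow as a whole. Of 16 tested T and Notch genes 3 were lower in 4 of 4 mice and 1 was higher. Of 10 tested NK and innate genes 1 was lower in 4 of 4 mice and 0 were higher. In null mice 9 of the 16 and 5 of the 10 had a positive log2 fold change. No single gene passed the test: edgeR's quasi-likelihood test with Benjamini-Hochberg adjustment called 0 genes higher and 0 lower of 19692 tested (0.0% each way). At an unadjusted p under 0.05 there were 630 higher (3.2%) and 758 lower (3.85%), and DESeq2 called 208 higher and 314 lower. Values below are therefore given as measured, with log2 fold changes ± SE as the mean of both genotypes. CPM was above the Ebf1-low level in all 4 mice for 5.33% of all genes tested and below it in all 4 for 5.98%. Because these are summed cells, fewer expressing cells and less RNA per cell cannot be told apart from CPM alone, so shares of cells with a read are given beside it. The share was above the Ebf1-low share in 4 of 4 mice for 5.93% of 11915 genes and below it in 4 of 4 for 5.66%. Of the 14 B-lineage transcription factors it was above in 4 of 4 mice for 4 and below in 4 of 4 for 1. It was above for 3 of the 16 receptor and signalling genes, 2 of the 10 recombination genes and 3 of the 20 interferon response genes, and below for 4 of the 15 NK and innate genes. Over all 246 list genes other than Ebf1 it was above for 14 (5.69%) and below for 13 (5.28%), which is close to the background in both directions.

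Among transcription factors of the B lineage, Pax5, which holds cells to the B lineage, had the largest ratio. Its level was 51.3 and 37.4 CPM in Ebf1-positive against 0.798 and 0.0684 CPM in Ebf1-low cells of null mice. In control mice it was 0.557 and 4.74 CPM in Ebf1-positive against 0.157 and 0.311 CPM in Ebf1-low cells. All 4 mice had more Pax5 in the Ebf1-positive class, and the log2 fold change was 5.03 ± 0.81 (edgeR adjusted p = 0.460). In mouse 18220 this rests on 1 cell, which held 90 of the 93 reads, and the other 9 cells contributed 0.153 of the 4.74 CPM, which is below the Ebf1-low level. The reads came from few cells. At 50000 gene counts per cell 14.0 and 29.0% of Ebf1-positive null cells and 4.17 and 10.0% of Ebf1-positive control cells had a Pax5 read. Among Ebf1-low cells of the same mice 6.90, 9.09, 2.00 and 3.33% had one. In control mice each of these shares was 1 cell, of 24 and 10 Ebf1-positive and of 50 and 30 Ebf1-low cells.

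Foxo1, a factor that drives Ebf1 and Rag1 in mouse progenitors, stood at 137 and 119 CPM in Ebf1-positive against 21.3 and 37.4 CPM in Ebf1-low cells of null mice. In control mice it stood at 33.4 and 17.9 CPM against 18.9 and 28.0 CPM. The classes were thus apart in null mice and overlapped in control mice, with log2 fold changes of 2.12 ± 0.73 in null and 0.13 ± 0.70 in control mice. The difference between these changes was 2.00 on the log2 scale (edgeR adjusted p = 0.740). Irf4, which acts later in B cells, had 2.13, 9.45, 11.5 and 6.77 CPM in the Ebf1-positive libraries of mice 18217, 18219, 18218 and 18220, against 5.23, 0, 0.0448 and 0.0583 CPM in the Ebf1-low ones. The log2 fold change was 4.28 ± 1.34, and 9.85 without mouse 18217. Single cells supplied 41.8 to 84.2% of the Irf4 reads of each Ebf1-positive library.

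Pou2af1, a B cell coactivator, was scarce in both classes, at 0.0879 to 5.57 CPM in Ebf1-positive and 0 to 0.0726 CPM in Ebf1-low libraries. Ikzf3, a zinc finger factor of later B cells, reached 16.9 CPM only in the Ebf1-low library of mouse 18220, where 97.9% of its reads came from 1 cell, and was at 0.107 to 0.224 CPM in the other 7 ALP libraries. Spi1, the myeloid and lymphoid factor PU.1, had 181 to 261 CPM in Ebf1-positive and 132 to 167 CPM in Ebf1-low libraries, without overlap (log2 0.42 ± 0.18). Of the 14 transcription factors other than Ebf1 all were tested, 9 had a positive and 5 a negative log2 fold change, and the median was 0.21, against −0.02 over all genes. By genotype, 12 of the 14 were positive in null mice (median 0.40) and 6 of 14 in control mice (median −0.07), where the medians over all genes were 0.05 and −0.07. CPM was above the Ebf1-low level in 4 of 4 mice for 3 of them and below it in 4 of 4 for 1. Their summed level was 1642 and 1765 CPM in Ebf1-positive against 1489 and 1494 CPM in Ebf1-low cells of null mice. In control mice the sum ran the other way, at 1917 and 2027 CPM against 2093 and 2902 CPM.

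Among receptor and signalling genes, Cd79a stood at 130 and 373 CPM in Ebf1-positive against 33.3 and 1.30 CPM in Ebf1-low cells of null mice. In control mice it stood at 49.1 and 0.815 CPM in Ebf1-positive against 2.20 and 1.01 CPM in Ebf1-low cells. Mice 18217, 18219 and 18218 thus had more Cd79a in the Ebf1-positive class and mouse 18220 did not (log2 3.90 ± 1.15; edgeR adjusted p = 0.687). Without mouse 18218 the log2 fold change was 1.76, and without mouse 18217 it was 6.06. At equal depth a Cd79a read was seen in 52.0, 77.4, 37.5 and 0% of Ebf1-positive cells of mice 18217, 18219, 18218 and 18220, against 20.7, 18.2, 10.0 and 3.33% of Ebf1-low cells. In LMPPs, which precede the B lineage, the share was 2.13 to 12.8%. The two-sided exact sign-flip test over 4 mice gave p = 0.25, and no p under 0.05 can be had with 4 mice.

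Blk, a kinase of B cells, had a read at equal depth in 50.0, 80.6, 79.2 and 40.0% of Ebf1-positive cells, in the same order of mice, against 34.5, 36.4, 32.0 and 30.0% of Ebf1-low cells, above in 4 of 4 mice, for which the exact sign-flip test gave the smallest p that 4 mice allow. Its summed level did not follow in mouse 18220, at 23.0 CPM in Ebf1-positive and 92.4 CPM in Ebf1-low cells, and the log2 fold change was 1.52 ± 0.72, or 0.27 without mouse 18218. Vpreb2, a surrogate light chain gene, had 31.8, 31.6, 11.4 and 0.0509 CPM in the Ebf1-positive libraries, against 5.61, 7.80, 2.14 and 0.233 CPM (log2 2.25 ± 1.00, and 0.0565 without mouse 18218). Its near-identical copy Vpreb1 had 0.322 to 5.45 CPM in Ebf1-positive and 0.136 to 4.04 CPM in Ebf1-low libraries (log2 2.23 ± 1.01), and reads of the pair may be split by the counting. Its log2 value was 1.42, 3.82 and 0.71 without mice 18217, 18219 and 18220. Cd79b, the partner chain of Cd79a, had a read in 60.0 to 64.5% of Ebf1-positive and 34.5 to 48.0% of Ebf1-low cells, but LMPPs also had one in 38.3 to 61.7% of cells. Of the 16 genes of this list 12 had a positive log2 fold change, the median was 0.48, and 1 was above in 4 of 4 mice by CPM. In null mice 13 were positive (median 1.01) and in control mice 9 (median 0.27). The summed level of this list was 1543 and 2569 CPM in Ebf1-positive against 865 and 1665 CPM in Ebf1-low cells of null mice. In control mice 18218 and 18220 it was 1782 and 1111 CPM against 1341 and 1619 CPM, so mouse 18220 ran the other way.

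Among recombination genes, Rag1 stood at 259 and 311 CPM in Ebf1-positive against 54.3 and 43.2 CPM in Ebf1-low cells of null mice. In control mice it stood at 131 and 22.4 CPM in Ebf1-positive against 13.9 and 25.4 CPM in Ebf1-low cells. Only in mouse 18220 was the Ebf1-positive library not above the Ebf1-low one (log2 2.26 ± 0.47; edgeR adjusted p = 0.502). Without mouse 18218 the log2 fold change was 1.19. By cells, 88.0, 83.9, 75.0 and 40.0% of Ebf1-positive cells of mice 18217, 18219, 18218 and 18220 had a Rag1 read at equal depth, against 55.2, 27.3, 24.0 and 26.7% of Ebf1-low cells. This was above in 4 of 4 mice, a mean difference of 38.4 percentage points, again at the smallest p of the exact test, and 4.26 to 6.67% of LMPPs had a Rag1 read.

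Rag2, the neighbour and partner of Rag1, was close in both classes, with a read in 70.0 to 87.1% of Ebf1-positive and 66.7 to 82.8% of Ebf1-low cells (log2 0.46 ± 0.33, and 0.19 and 0.28 without mice 18218 and 18219). Dntt was high in both, at 6884 to 10220 CPM in Ebf1-positive and 7102 to 8920 CPM in Ebf1-low libraries, with a read in 100% of cells of either class at equal depth (log2 0.12 ± 0.18). Xrcc6, which encodes the Ku70 end-binding protein, had 702 to 1048 CPM in Ebf1-positive and 563 to 695 CPM in Ebf1-low libraries (log2 0.49 ± 0.16). Of the 10 recombination genes 8 had a positive log2 fold change, with a median of 0.48, and 1 was above in 4 of 4 mice. In null mice 8 were positive (median 0.32) and in control mice 6 (median 0.24).

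**Figure D2:**
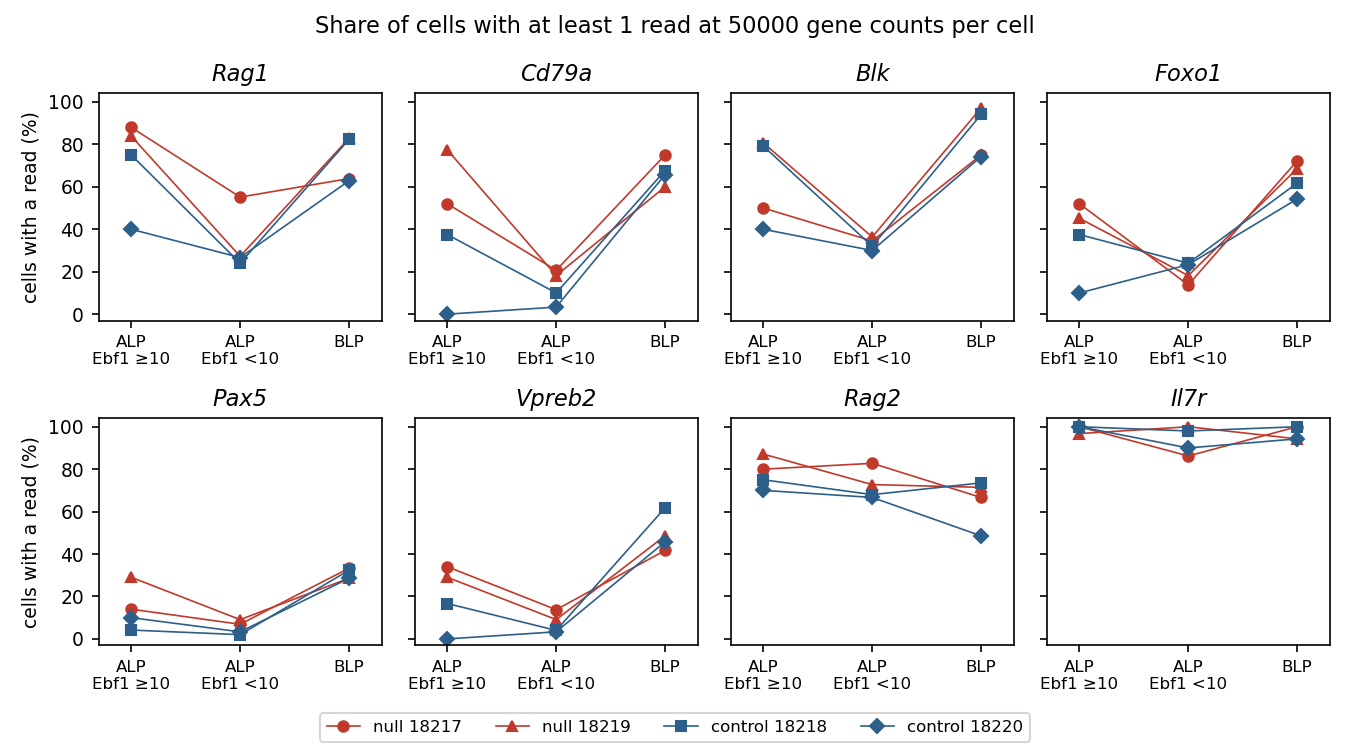
Share of cells (y axis, %) with at least 1 read of 8 genes after thinning to 50000 gene counts, in Ebf1-positive ALPs, Ebf1-low ALPs and BLPs (x axis); each point is 1 mouse, null in red and control in blue, and lines join the classes of a mouse. Rag1, Blk and Pax5 shares are above the Ebf1-low share in 4 of 4 mice, but each Pax5 share of control ALPs is 1 cell. Cd79a and Foxo1 shares are not above it in control mouse 18220, and Il7r is read in 86.2 to 100% of ALPs of either class.

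Transcripts of the surface gate overlapped between the classes. Il7r, the receptor gene of the gate, had 582 to 823 CPM in Ebf1-positive and 471 to 934 CPM in Ebf1-low libraries (log2 0.23 ± 0.21, and 0.0502 and 0.45 without mice 18218 and 18220). Ly6d, whose protein the ALP gate excludes, had 29.0 to 78.5 CPM in Ebf1-positive and 27.6 to 282 CPM in Ebf1-low libraries, and 1 cell supplied 75.7% of the highest of these (log2 −1.31 ± 0.61). Of the 15 gate and IL-7 receptor pathway genes 6 had a positive and 9 a negative log2 fold change, with a median of −0.05. Cd93, an early lymphoid surface receptor gene, had 693 to 871 CPM in Ebf1-positive and 420 to 708 CPM in Ebf1-low libraries. It was above in 4 of 4 mice (log2 0.56 ± 0.11; edgeR adjusted p = 0.502).

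Genes of other lineages were described from the same lists. Tcf7, a T and innate lymphoid factor, was nearly without reads in Ebf1-positive cells, at 0.128, 0.128, 0.176 and 0.102 CPM in mice 18217, 18219, 18218 and 18220, against 59.1, 0.479, 47.8 and 39.0 CPM in Ebf1-low cells (log2 −8.04 ± 1.96; edgeR adjusted p = 0.650), and the log2 value was −5.05 without mouse 18217. Those reads came from 8.00 to 13.8% of the Ebf1-low cells at equal depth, and 46.0 to 91.8% of them from 1 cell in each mouse. Nfil3, needed for innate lymphoid cells, had 0.213 to 5.86 CPM in Ebf1-positive and 25.4 to 174 CPM in Ebf1-low libraries, with no overlap (log2 −5.41 ± 1.51). Gata3, a T and innate lymphoid factor, had 1.63 to 4.16 CPM in Ebf1-positive and 1.85 to 32.0 CPM in Ebf1-low libraries, which overlapped (log2 −2.07 ± 0.63, and −1.37 without mouse 18217).

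Cd7, a T and NK surface gene, had 1.09 to 3.16 CPM in Ebf1-positive and 6.23 to 42.2 CPM in Ebf1-low libraries (log2 −3.20 ± 0.79), and 36.4 to 92.3% of the Ebf1-low reads came from 1 cell per mouse. Cd28, a T cell costimulatory receptor, had 5.50 to 59.9 CPM against 39.7 to 68.8 CPM (log2 −1.71 ± 0.68). Klrd1, an NK receptor chain, had a read in 0 to 16.1% of Ebf1-positive and 10.3 to 40.0% of Ebf1-low cells, below in 4 of 4 mice, and its log2 fold change was −3.13 ± 1.05. As the mean of genotypes all 10 tested NK and innate genes of 15 listed had a negative log2 fold change (median −1.53), and 12 of 16 tested T and Notch genes of 20 listed did (median −0.47). In null mice the NK and innate genes split 5 positive to 5 negative (median −0.22) and 9 of 16 T and Notch genes were positive (median 0.10), whereas in control mice all 10 (median −3.17) and 13 of 16 (median −0.95) were negative. The difference between the genotypes' log2 fold changes had medians of 1.14 and 0.54 over these lists, against 0.20 over all genes, and passed the test for no single gene. The summed level of the NK and innate list was 317 to 556 CPM in Ebf1-positive and 684 to 904 CPM in Ebf1-low libraries. That of the T and Notch list overlapped, at 612 to 836 and 762 to 1155 CPM.

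Negative log2 fold changes were also in the majority for 17 of 21 stem and multipotent genes (median −0.51), 11 of 15 dendritic genes (median −0.57) and 9 of 13 myeloid genes (median −0.23). In null mice 13, 10 and 10 genes of these lists were negative, with medians of −0.51, −0.35 and −0.87, and in control mice 14, 12 and 6, with medians of −0.59, −0.69 and 0. The summed myeloid list ran from 429 to 1002 CPM in Ebf1-positive and from 394 to 1629 CPM in Ebf1-low libraries. Cox6a2, a gene of plasmacytoid dendritic cells, had 167 to 264 CPM in Ebf1-positive and 223 to 742 CPM in Ebf1-low libraries (log2 −1.02 ± 0.36). Some marker genes of other cells were at or near 0 in the Ebf1-positive cells. Elane (neutrophils) had at most 1 read per mouse, Gata1 (erythroid cells) at most 2 and Ms4a1 (mature B cells) at most 9. Cd3e (T cells) had at most 1 and Pf4 (megakaryocytes) 0. Other markers were clearly read, such as Cox6a2 and Mpo, whose levels are given below beside BLPs. The genes near 0 do not stand for their lists. The summed mature B and plasma cell list ran from 272 to 483 CPM in Ebf1-positive and from 159 to 447 CPM in Ebf1-low libraries. The summed erythroid and megakaryocyte list ran from 73.4 to 149.0 CPM in Ebf1-positive and from 148.6 to 278.5 CPM in Ebf1-low libraries. The summed dendritic list ran from 773 to 987.5 CPM in Ebf1-positive and from 983 to 1762 CPM in Ebf1-low libraries. In Ebf1-low cells Cd3e had 968 reads in mouse 18220 and 0 in the other 3 mice. The part of other cell types in these values was not tested. Of the 20 S-phase genes 19 had a negative log2 fold change (median −0.32), while the 24 G2 and M phase genes split 13 positive to 11 negative (median 0.13). In null mice 19 S-phase genes were negative (median −0.55) and 16 G2 and M genes positive (median 0.26), and in control mice 14 (median −0.0762) and 9 (median −0.0898). Of the other lists, 9 of 11 erythroid and megakaryocyte genes had a negative log2 fold change (median −1.22), and 6 of 8 tested mature B and plasma cell genes a positive one (median 1.52). The first of these had 7 negative in null and 9 in control mice, and the second 8 and 6 positive. The E and Id proteins, the interferon response genes and the NuRD subunits had medians of 0.18, 0.11 and 0.01, with 4 of 6, 11 of 20 and 7 of 13 positive. In null mice 6, 12 and 7 of these were positive, and in control mice 4, 9 and 7. Mcm5, a replication licensing gene, had a read in 58.3 to 70.0% of Ebf1-positive and 70.0 to 96.6% of Ebf1-low cells, below in 4 of 4 mice.

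**Figure D3:**
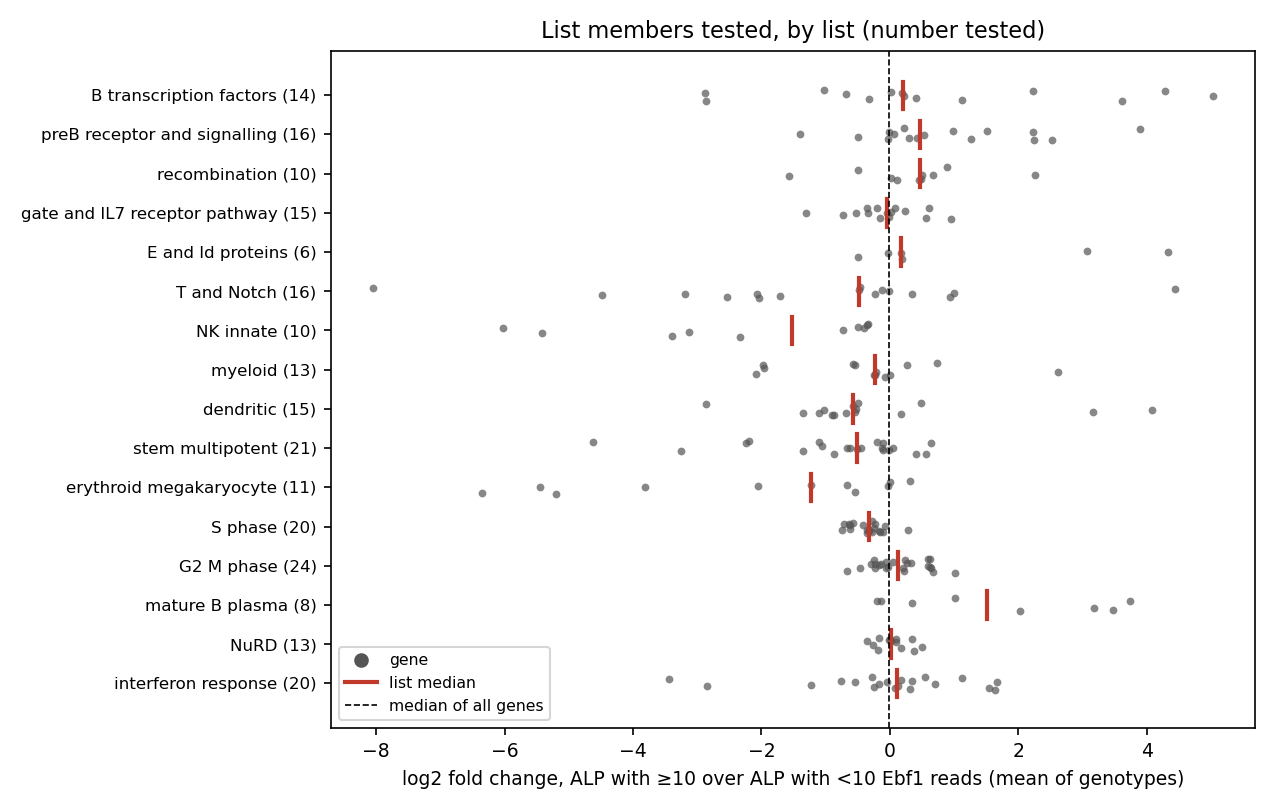
Log2 fold change of Ebf1-positive over Ebf1-low ALPs, mean of genotypes (x axis), for every list member tested (grey points), by list with the number tested (y axis); red bars are list medians and the dashed line is the median of all genes at −0.02. All 10 NK and innate genes lie at or below −0.34 and 19 of 20 S-phase genes lie below 0 in this mean, although in null mice alone 5 of the 10 NK and innate genes were positive and in control mice alone 6 of the 20 S-phase genes were; none of the points passed the test.

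Outside the lists, the 5 genes of smallest p in either direction, at 20 CPM or more in the higher class and with no overlap between the classes within a genotype, were named by rule. Pik3r6, a regulatory subunit of phosphoinositide 3-kinase gamma, had 33.0, 10.6, 58.6 and 50.2 CPM in the Ebf1-positive libraries of mice 18217, 18219, 18218 and 18220, against 2.25, 3.49, 3.40 and 2.12 CPM (log2 3.62 ± 0.53; edgeR adjusted p = 0.460). Sigirr, an inhibitory member of the IL-1 receptor family, had 164 to 229 CPM against 61.2 to 147 CPM (log2 1.16 ± 0.20), with a read in 70.8 to 100% of Ebf1-positive and 44.8 to 56.7% of Ebf1-low cells. Slc17a9, a vesicular nucleotide transporter, had 70.6 to 111 CPM against 39.3 to 47.8 CPM (log2 1.08 ± 0.20). Hilpda, a lipid droplet gene, had 145 to 307 CPM against 84.3 to 136 CPM (log2 0.98 ± 0.21), and Pax5 was the fifth gene.

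On the other side stood Gsn, the actin-severing protein gelsolin, with 4.94 to 40.8 CPM in Ebf1-positive and 45.3 to 123 CPM in Ebf1-low libraries (log2 −2.60 ± 0.47; edgeR adjusted p = 0.460). Esyt2, a membrane tether, had 9.32 to 24.1 CPM against 34.7 to 67.1 CPM (log2 −1.88 ± 0.34). Rab3ip, a Rab exchange factor, had 4.50 to 19.1 CPM against 20.9 to 66.7 CPM (log2 −2.30 ± 0.44). Gapt, a transmembrane adaptor, had 3.26 to 18.0 CPM against 31.0 to 46.0 CPM (log2 −2.29 ± 0.49), and Rnf227 had 16.0 to 43.1 CPM against 54.9 to 135 CPM (log2 −1.65 ± 0.32). These 10 genes were the extremes of 19692 and none passed adjustment.

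Within null mice alone 0 genes were called either way (0.0% each), with 777 higher (3.95%) and 446 lower (2.26%) at an unadjusted p under 0.05, and DESeq2 called 252 higher and 138 lower. The genes named by rule there were Sigirr, Cd93 and Pax5, and also Nsun3, a mitochondrial tRNA methyltransferase, with 34.5 and 42.2 CPM in Ebf1-positive against 2.15 and 0.958 CPM in Ebf1-low cells. Irf5, an interferon regulatory factor, had 51.4 and 91.2 CPM against 12.1 and 10.3 CPM. The other direction named Rnf227, Osgin2, Krt18, Wfdc17 and Renbp, with Renbp at 24.9 and 23.6 CPM in Ebf1-positive against 106 and 95.1 CPM in Ebf1-low cells.

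Within control mice 0 genes were called either way (0.0% each), with 384 higher (1.95%) and 790 lower (4.01%) unadjusted, and DESeq2 called 107 higher and 350 lower. Renbp, an enzyme of amino sugar metabolism, ran the other way there, at 57.6 and 65.5 CPM in Ebf1-positive against 17.6 and 14.1 CPM in Ebf1-low cells (log2 1.96 ± 0.44, and −2.05 ± 0.44 in null mice). The test of that difference gave an edgeR adjusted p of 0.679. Without mouse 18218 the log2 fold changes in control mice were −0.17 for Rag1, −0.29 for Cd79a and −0.63 for Foxo1. Pik3r6, Slc17a9, Hilpda and Pcmtd1 completed the upper 5, and Gsn, Ptgr1, Esyt2 and Oasl2 were on the lower side. Ptgr1, a reductase of prostaglandins, had 0.791 and 0.357 CPM in Ebf1-positive against 14.6 and 39.5 CPM in Ebf1-low control cells. The test of the difference between genotypes called 0 genes higher and 0 lower (0.0% each), with 977 (4.96%) and 396 (2.01%) unadjusted and 339 and 101 by DESeq2.

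**Figure D4:**
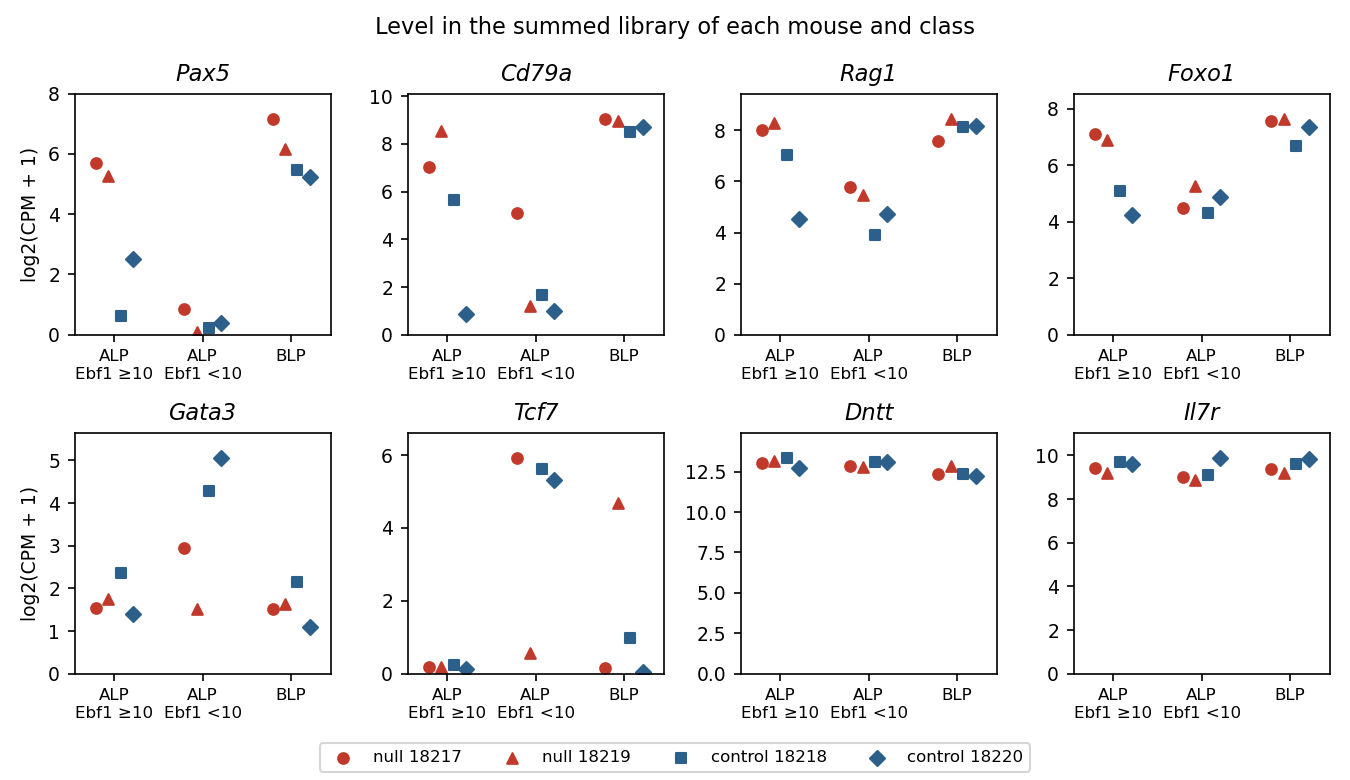
Level of 8 genes as log2(CPM + 1) (y axis) in the summed libraries of Ebf1-positive ALPs, Ebf1-low ALPs and BLPs (x axis), 1 point per mouse, with null mice in red and control mice in blue. Pax5, Cd79a and Rag1 stand nearer to BLPs in Ebf1-positive null libraries than in those of control mouse 18220, Tcf7 is at 0.102 to 0.176 CPM in the Ebf1-positive libraries, and Dntt and Il7r overlap between the ALP classes.

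A second transcript is annotated within Ebf1. Gm12158 lies on the minus strand at chr11:44659522-44662676, inside the Ebf1 gene at chr11:44617317-45008091 on the plus strand. It had 15.1, 19.9, 8.17 and 6.26 CPM in the Ebf1-positive libraries of mice 18217, 18219, 18218 and 18220, against 3.34, 0.0684, 0.426 and 2.68 CPM in the Ebf1-low ones (log2 2.78 ± 0.97, and 5.2 without mouse 18217). No source used here says whether strand entered the counting, so reads of Ebf1 and of this antisense gene cannot be told apart, and its values are not independent of the choice of cells.

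Ebf1-positive cells differed widely among themselves in how many B genes accompanied Ebf1. At equal depth Rag1 and Cd79a reads occurred together in 46.0 and 71.0% of Ebf1-positive cells of null mice 18217 and 18219, and in 29.2 and 0% of those of control mice 18218 and 18220. Neither was read in 6.00 and 9.68% of the null and in 16.7 and 60.0% of the control cells. Over both null mice 45 cells had both transcripts, 25 Rag1 alone, 5 Cd79a alone and 6 neither. Over both control mice the counts were 7, 15, 2 and 10 cells. In Ebf1-low cells both were read together in 6 of 40 null and 2 of 80 control cells.

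A count over 8 B genes (Pax5, Cd79a, Vpreb1, Vpreb2, Vpreb3, Igll1, Blk and Pou2af1) also varied between cells. At least 3 of them were read in 30.0 and 54.8% of Ebf1-positive null cells and in 16.7 and 10.0% of Ebf1-positive control cells, by mouse. In Ebf1-low cells the shares were 17.2 and 0% in null and 0% in both control mice, and in BLPs 52.8 to 70.6%. The median per cell was 1.5 and 3 of the 8 genes in Ebf1-positive cells of null mice, and 1 and 0 in those of control mice. By Ebf1 reads, at least 3 of the 8 genes were found in 7 of 14 null cells with 10 to 49 reads, 5 of 19 with 50 or more but fewer than 200, and 20 of 48 with 200 or more. In control mice the counts were 1 of 15, 4 of 14 and 0 of 5 cells, so the share did not climb steadily with Ebf1 in either genotype. Rag1 and Cd79a together were found in 5 of 14, 8 of 19 and 32 of 48 null cells and in 2 of 15, 4 of 14 and 1 of 5 control cells of the same bins. Across cells of 1 mouse, Spearman's rho between Ebf1 CPM and the number of B genes was 0.17 (n = 50), 0.27 (n = 31), 0.46 (n = 24) and 0.57 (n = 10). Cells of a mouse share their preparation, and Ebf1 CPM and depth of the cell had rho of −0.36 to −0.12.

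**Figure D5:**
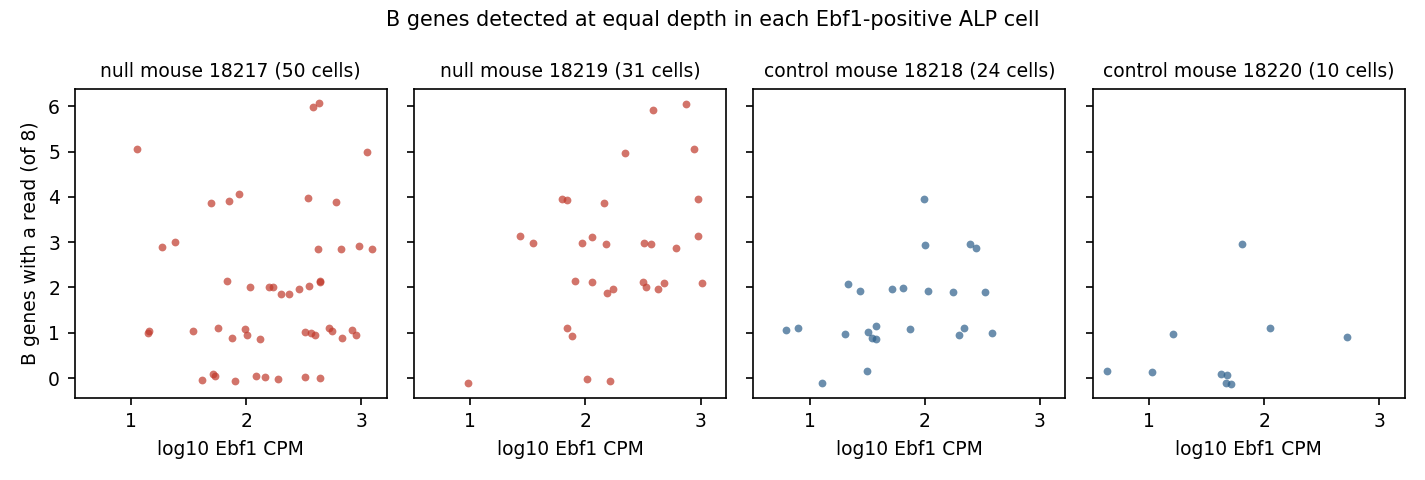
Number of 8 B genes with a read at 50000 gene counts (y axis) against Ebf1 level as log10 CPM (x axis) in each Ebf1-positive ALP, 1 panel per mouse with null mice on the left; points are cells and are spread slightly in height to show overlap. Null cells reach 6 of the 8 genes in both mice and control cells 4 and 3, and cells with none occur in all 4 mice.

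The second question was whether Ebf1-positive cells of null mice differ from those of control mice. Both null mice lay above both control mice for Pax5, Foxo1, Rag1, Cd79a and Vpreb3, and below them for Mbd3 and Ablim1. The B-lineage transcription factors did not lie one way, with 8 positive and 6 negative log2 differences (median 0.0847). Of these 5 were above and 3 below without overlap, and their summed level was 1642 and 1765 CPM in null against 1917 and 2027 CPM in control mice. edgeR called 0 genes higher and 0 lower of 19692 (0.0% each), with 944 higher (4.79%) and 422 lower (2.14%) at an unadjusted p under 0.05, and DESeq2 called 466 higher and 152 lower. Mice of the genotypes did not overlap for 20.6% of genes in the upward and 13.5% in the downward direction, so separation of 2 mice from 2 is common here. Ebf1-positive cells were themselves shallower in null mice, with median nuclear counts of 1070833 and 1315174 against 1478374.5 and 1919974.5. Nor were the genotypes matched for Ebf1, with median levels of 196 and 162 CPM in null against 58.2 and 46.9 CPM in control mice. At least 200 Ebf1 reads were held by 48 of 81 null and 5 of 34 control cells. The parts of depth and of Ebf1 level in these values were not tested.

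Pax5 was at 51.3 and 37.4 CPM in null against 0.557 and 4.74 CPM in control mice (log2 4.08 ± 1.09; edgeR adjusted p = 0.646). Foxo1 was at 137 and 119 against 33.4 and 17.9 CPM (log2 2.32 ± 0.73), and Rag1 at 259 and 311 against 131 and 22.4 CPM (log2 1.89 ± 0.66). Cd79a was at 130 and 373 against 49.1 and 0.815 CPM (log2 3.33 ± 1.57), and Vpreb3, a chaperone of early B cells, at 6.80 and 35.1 against 1.70 and 0.204 CPM (log2 4.41 ± 1.47). The log2 difference of Rag1 was 1.15 without control mouse 18220 and 3.66 without control mouse 18218, and that of Cd79a 2.38 and 8.25. That of Pax5 was 6.34 without mouse 18220, and that of Vpreb3 6.65 without mouse 18218 and 2.79 without mouse 18219. Tcf12, which encodes the E protein HEB, was at 83.2 and 120 against 45.2 and 45.2 CPM (log2 1.17 ± 0.31). Irf8, a factor of myeloid, dendritic and B cells, stood at 107 and 264 against 653 and 603 CPM (log2 −1.76 ± 0.70).

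Of the 16 receptor and signalling genes 14 had a positive log2 difference, null over control, with a median of 0.64, and all 24 G2 and M phase genes had a negative one, with a median of −0.75. The median over all genes was 0.07. The summed G2 and M list stood at 1965 and 928 CPM in null and at 1740 and 3471 CPM in control mice, which overlapped. None of the 24 had an unadjusted p under 0.05. Positive differences were also in the majority for stem and multipotent genes (16 of 21, median 0.80), myeloid genes (10 of 13, median 0.65) and NK and innate genes (8 of 10, median 0.36). Negative ones were in the majority for T and Notch genes (10 of 16, median −0.44) and mature B and plasma cell genes (7 of 8, median −0.49).

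By rule, Akr1c13, an aldo-keto reductase, led the upper genes with 39.4 and 49.6 CPM in null against 4.92 and 5.50 CPM in control mice (log2 3.09 ± 0.40; edgeR adjusted p = 0.218). Ptgr1 had 28.6 and 68.6 against 0.791 and 0.357 CPM, Hipk2, a nuclear kinase, 23.1 and 49.0 against 2.78 and 2.29 CPM, Chchd10, a mitochondrial protein, 178 and 498 against 53.9 and 36.0 CPM, and Usf3 25.6 and 33.2 against 3.92 and 5.25 CPM. Ablim1, an actin-binding protein, had 0.717 and 1.07 CPM in null against 75.5 and 28.4 CPM in control mice (log2 −5.86 ± 0.83; edgeR adjusted p = 0.233). It had a read at equal depth in 4.00 and 3.23% against 45.8 and 50.0% of cells. Ctr9, a subunit of the Paf1 complex, had 210 and 185 against 662 and 916 CPM, and Ctsz, a lysosomal protease, 133 and 123 against 214 and 358 CPM. Wfdc17 had 6.06 and 3.43 against 57.2 and 20.6 CPM, and Osgin2 6.17 and 8.66 against 24.4 and 34.6 CPM. None of these 10 genes overlapped between genotypes, since the rule asked for that.

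The third comparison set Ebf1-positive ALPs beside BLPs, the sorted population in which the summed Ebf1 level was 228 to 286 CPM. Unlike the ALPs, the BLPs were not chosen by Ebf1 reads. At least 10 reads were held by 63.9 and 71.4% of BLPs in null mice 18217 and 18219. In control mice 18218 and 18220 the shares were 79.4 and 77.1%. The part of this choice of cells in the values below was not tested. As the mean of genotypes, levels of Cd34, Mpo and Csf3r were above those of BLPs, and levels of Pax5, Cd79a and the surrogate light chain genes below them. edgeR called 0 genes higher and 0 lower of 19692 (0.0% each), with 695 higher (3.53%) and 1005 lower (5.1%) unadjusted, and DESeq2 called 229 higher and 403 lower. CPM was above the BLP level in 4 of 4 mice for 6.25% of genes and below it in 4 of 4 for 8.54%. Ly6d itself, at 29.0 to 78.5 CPM in Ebf1-positive ALPs and 1479 to 3756 CPM in BLPs (log2 −5.72 ± 0.74), is a gene of the sort gate and is no finding.

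Igll1, which encodes lambda 5, had 2.15, 6.10, 1.38 and 0 CPM in Ebf1-positive ALPs of mice 18217, 18219, 18218 and 18220, against 644, 191, 13.3 and 269 CPM in BLPs (log2 −7.12 ± 1.18; edgeR adjusted p = 0.179), and the log2 value was −11.83 without mouse 18218. In the BLPs, 49.8 to 98.9% of those reads came from 1 cell per mouse. Vpreb1 had 0.322 to 5.45 against 29.4 to 108 CPM (log2 −4.60 ± 1.10), Vpreb3 0.204 to 35.1 against 68.2 to 272 CPM (log2 −5.31 ± 1.07), and Vpreb2 0.0509 to 31.8 against 66.8 to 116 CPM (log2 −2.66 ± 1.01, and −5.99 without mouse 18218). Pou2af1 had 0.0879 to 5.57 against 16.7 to 50.4 CPM (log2 −5.45 ± 1.09), and Spib, an Ets factor of B and dendritic cells, 0 to 0.0509 against 4.26 to 25.1 CPM (log2 −8.96 ± 1.72).

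Pax5, Cd79a and Foxo1 also had negative log2 values, at −2.58 ± 0.72, −2.49 ± 1.07 and −1.47 ± 0.50, and that of Cd79a was −5.02 without mouse 18218. By cells, a Cd79a read at equal depth was more frequent than in BLPs in mouse 18219, with 24 of 31 against 21 of 35 cells. It was less frequent in mice 18217, 18218 and 18220, with 26 of 50, 9 of 24 and 0 of 10 cells. In the BLPs of these mice 27 of 36, 23 of 34 and 23 of 35 cells had one. Pax5 stood at 51.3 and 37.4 CPM in Ebf1-positive ALPs against 141 and 71.0 CPM in BLPs of null mice, and at 0.557 and 4.74 CPM against 42.8 and 36.5 CPM in control mice. Rag1 stood at 259 and 311 CPM against 191 and 343 CPM in null mice, where the classes overlapped, and at 131 and 22.4 CPM against 280 and 284 CPM in control mice (log2 −0.89 ± 0.46 over both, −1.80 without mouse 18218 and −0.53 without mouse 18220). Of 16 receptor and signalling genes 15 had a negative log2 value (median −1.76) and 9 were below the BLP level in 4 of 4 mice, and of 14 transcription factors 10 (median −0.94) and 7 were. The median over all genes was −0.05. Of the 10 recombination genes 6 were positive (60.0%, against 46.25% of all genes tested), and Rag1 was not among them. Above the BLP level in 4 of 4 mice were 3 of the 10. One of these was Dntt, at 6884 to 10220 CPM in Ebf1-positive ALPs against 4799 to 7423 CPM in BLPs (log2 0.61 ± 0.18).

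Cd34, a progenitor surface gene, had 463, 542, 887 and 761 CPM in Ebf1-positive ALPs, against 102, 246, 353 and 303 CPM in BLPs, with no overlap (log2 1.43 ± 0.23; edgeR adjusted p = 0.165). A Cd34 read at equal depth was seen in 71.0 to 100% of Ebf1-positive ALPs and 57.1 to 79.4% of BLPs. The share was above that of BLPs in 4 of 4 mice for 11.7% of genes and below it in 4 of 4 for 4.51%. Mpo, the neutrophil enzyme myeloperoxidase that lymphoid progenitors also transcribe, had 763, 601, 445 and 232 CPM against 249, 288, 136 and 66.7 CPM (log2 1.54 ± 0.33). Csf3r, the granulocyte growth factor receptor, had 9.42 to 28.4 against 0.365 to 10.9 CPM (log2 3.35 ± 0.48), and Mecom, a stem cell factor, 1.48 to 17.5 against 0.112 to 0.842 CPM (log2 4.61 ± 1.04). Lat, a T cell adaptor, had 65.9 to 187 against 52.8 to 97.0 CPM (log2 0.81 ± 0.22), while 10 of the 16 T and Notch genes had a negative log2 value (median −0.81). Over whole lists, 9 of 13 myeloid genes and 11 of 21 stem and multipotent genes had a positive log2 value, with medians of 0.38 and 0.44. The summed myeloid list was 429 to 1002 CPM in Ebf1-positive ALPs and 200.5 to 510.5 CPM in BLPs. Of the interferon response genes 16 of 20 had a positive log2 value (median 0.93), and of the dendritic genes 11 of 15 a negative one (median −0.65). Negative values also made up 7 of 10 NK and innate genes (median −0.82) and 5 of 6 E and Id proteins (median −0.37).

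The remaining genes named by rule were Ddx4, Map2k5, Psph and Cct2 on the upper side and Ifitm1, Ly6e and Gsn on the lower. Ddx4, a germ cell RNA helicase, had 30.2, 45.2, 36.4 and 7.64 CPM in Ebf1-positive ALPs, against 2.56, 0.131, 0.413 and 0.210 CPM in BLPs (log2 5.47 ± 0.90), from 9.68 to 20.8% of cells against 0 to 2.86%, and 52.9 to 96.0% of the reads in Ebf1-positive ALPs came from 1 cell per mouse. Psph, an enzyme of serine synthesis, had 85.3 to 121 against 29.8 to 65.5 CPM (log2 1.20 ± 0.21), and Map2k5, a kinase kinase, 82.5 to 93.7 against 16.0 to 71.9 CPM (log2 1.35 ± 0.23). Cct2, a chaperonin subunit, had 548 to 736 against 398 to 458 CPM (log2 0.59 ± 0.11). Ifitm1, an interferon-induced membrane gene, had 20.2 to 51.3 against 96.3 to 161 CPM (log2 −2.08 ± 0.26; edgeR adjusted p = 0.0921). Ly6e, a gene of the Ly6 cluster on chromosome 15 that also holds Ly6d, had 1442 to 2742 against 4169 to 4918 CPM (log2 −1.13 ± 0.15; edgeR adjusted p = 0.0921).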

How the data were processed

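Read counts per gene were deposited for 672 single cells of 4 mice (aligned with GSNAP and counted with HTSeq 0.5.3p3, build mm10, per the submitters' processing notes). No source used here states the annotation release or the strand setting, and no column was left unmapped. The counts hold reads without molecular identifiers. The exact intervals on shares of ALPs cover only the sampling of cells within 1 mouse. The table held 46078 genes, 92 spike-ins and 5 summary entries. Genes held 43.2% of all entries, and summary entries and spike-ins stayed out of library sizes. Symbols came from the GENCODE annotation of GRCm38 for 45229 identifiers.

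Cells with at least 50000 nuclear counts, 1000 genes, at most 20% mitochondrial and 50% spike-in counts were kept (561). No pair of kept cells had identical counts (0), and no doublet caller was run on cells sorted one per well. ALPs were split at 10 Ebf1 reads. Counts were summed per mouse and class into 16 libraries and tested with edgeR 4.0.16 (TMM, filterByExpr, glmQLFTest; R 4.3.3) in 1 fit of 8 group means with 8 residual degrees of freedom. CPM of summed libraries used totals scaled by the TMM factors. The fit was also run on simulated data with planted changes. How many of these it called is not given here, so its power is not shown. Calls used p-values adjusted by the Benjamini-Hochberg method at 0.05, and a standard error is the log2 fold change divided by the square root of F. Mice are the replicates; the labels number them but say nothing of litters. Classes of the same mouse are paired by the animal. Their deviations from group means correlated by 0.0054 to 0.060 over genes. The replicate-block fit, DESeq2 1.42.0, limma 3.58.1 and other member rules were alternatives.

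Shares of cells with a read used cells thinned to 50000 gene counts. Genes named were Ebf1, Rag1, Cd79a, Mbd3, the 5 of smallest p in each direction at 20 CPM or more in the higher group without overlap (none passed adjustment), and list members of smallest p. Members of the 16 lists named beyond that number, Gm12158, Efhd1 and Cd6 were chosen after their values were seen. The cells, lists and tests were chosen with earlier results of these data known. Some results the naming rule would give are not reported here.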

Additional observations from a re-analysis of the deposited data

How the results depend on the processing

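The count of genes called by edgeR was 0 in all 6 comparisons, and it ranged from 0 to 0 when any 1 mouse was left out, where the lone mouse of a genotype is assumed to vary like the other groups. In the order Ebf1-positive against Ebf1-low over both genotypes, in null mice, in control mice, the difference between genotypes, null against control among Ebf1-positive cells, and Ebf1-positive ALPs against BLPs, DESeq2 called 522, 390, 457, 440, 618 and 632 genes, and edgeR without a filter on low counts 26, 11, 9, 3, 19 and 61. The cause was not tested. Requiring 1 Ebf1 read instead of 10 left 6 and 2 null cells in the Ebf1-low class and gave 116, 249 and 55 calls over both genotypes, in null mice and for their difference, and 1 against BLPs. Requiring 50 reads gave 1 over both genotypes, 6 in control mice, 10 for null against control and 2 against BLPs. Against BLPs limma-voom called 1 gene and thinned cells 15. The mean over cells of log2(CPM + 1), chosen after seeing the data, called 1 gene in null mice (Efhd1), 6 for null against control, Mbd3, Ablim1, Efhd1 and Cd6 among them, and 23 against BLPs. Classes of a mouse are paired by the animal, and with mouse as a replicate block 1 gene was called against BLPs and none in the other comparisons; null against control lies between mice and has no block. The difference in the share of Ebf1-positive ALPs was 34.6 to 45.1 percentage points with 1 mouse left out.

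Of the alternatives for single genes, 22 turned a direction. With 1 Ebf1 read as the rule the log2 fold change over both genotypes was 0.79 for Rnf227, 6.01 for Klrd1, 0.13 for Mcm5, −0.31 for Xrcc6, −0.26 for Vpreb3, −0.00966 for Rag2, −0.20 for Dntt, −0.0326 for Il7r and 2.16 for Ly6d. In null mice it was −0.085 for Irf5, 3.41 for Wfdc17 and 0.29 for Renbp, and in control mice −0.48 for Slc17a9, 0.15 for Gsn and 1.88 for Oasl2. That rule moved the median of all genes to 0.49 over both genotypes. Thinned cells gave −0.075 for Foxo1 in control mice. With 1 mouse left out, values over both genotypes ran from −0.28 to 3.03 for Vpreb3, −0.0332 to 0.23 for Dntt and −1.87 to 0.076 for Ly6d. In control mice they ran from −0.17 to 3.19 for Rag1, −0.29 to 4.43 for Cd79a and −0.63 to 0.78 for Foxo1. The cause was not tested. For several genes, such as Pax5, Irf4, Cd7 and Ddx4, 1 cell held most reads of a library.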
